A study of Mus musculus with 37 samples.

Results

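The genes described here are 10 genes of the YAP/TAZ pathway, chosen by symbol: the coactivators Yap1 and Wwtr1 (which encodes TAZ), their DNA-binding partner Tead1, the regulators Lats2, Amotl1, Amotl2 and Ajuba, and the target genes Ccn1, Ccn2 and Ankrd1. Earlier results of these data were known when the genes were chosen. All 10 were rows of the whole organoid table of 27407 genes and of the irradiation table of 27547 genes. The table of sorted cells without irradiation, with 20500 genes, listed 9 of them and not Ankrd1. RNA was measured in jejunal organoids of adult mice, cultures of intestinal epithelium that grow from crypts, each line from 1 mouse. Whole organoids of C57Bl/6 mice had been left untreated (3 mice) or given 100 nM vasoactive intestinal peptide (VIP), a neuropeptide, for 72 h (4 mice), and 6 of these 7 cultures were sequenced as 2 technical libraries. In the other 2 experiments, cells positive for Lgr5-EGFP were sorted from organoids of Lgr5-EGFP-IRES-CreERT2 mice, in which the reporter sits at the locus of the stem cell gene Lgr5. One compared 72 h of 100 nM VIP with no treatment in 4 mice. The other crossed 100 nM VIP with irradiation (IR) at 6 Gy in 4 further mice, each present in all 4 groups, with sorting 48 h after IR. How long VIP was given in the non-irradiated arm was not stated in the sources used here. These groups test whether VIP, IR or the 2 together change the level of the genes.

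YAP and TAZ carry signals from cell shape, adhesion and injury to the nucleus. The kinases LATS1 and LATS2 phosphorylate them, which keeps them in the cytoplasm; when they are not phosphorylated they enter the nucleus, bind TEAD factors and switch on genes such as Ccn1 and Ccn2, which encode matricellular proteins. In the intestinal epithelium the pathway is known for its part in regeneration after injury, when crypt cells take up a transient state marked by Ly6a, Clu and Anxa1. The activity of YAP and TAZ is set mainly by phosphorylation and location, which RNA counts do not measure.

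TEAD factors recognise the letters GGAATG, which were searched on both strands of the RefSeq promoters (GRCm38.p6; 250 bases before to 50 after the transcription start). Of the 10 genes, 8 had a promoter in the table, and 7 of these 8 held the letters in at least 1 promoter (Ccn1, Ankrd1, Yap1, Wwtr1, Amotl2, Lats2 and Ajuba, but not Amotl1), beside 16.6% of the 27025 genes in the table and 14.7% of its 32851 promoters. Ccn2 and Tead1 had no entry. The AP-1 letters TGANTCA (7.81% of all promoters) and the cAMP response element TGACGTCA (1.79% of all promoters) were in none of the 10 promoters of these 8 genes, which says only that these letters were not there. The 250 bases before the start are shown for the 2 genes that passed the test after IR (Ccn1 and Ajuba) and for Ankrd1, which holds 2 matches and gave almost no counts; the capitals mark the TEAD letters or their complement.
Ccn1, chr3:145649986-145650235, minus strand: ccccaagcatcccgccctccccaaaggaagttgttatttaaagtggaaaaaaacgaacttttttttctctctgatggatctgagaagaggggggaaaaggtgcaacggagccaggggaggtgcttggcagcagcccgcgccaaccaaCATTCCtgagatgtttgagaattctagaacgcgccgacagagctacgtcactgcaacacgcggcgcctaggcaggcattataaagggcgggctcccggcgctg
Ajuba, chr14:54577662-54577911, minus strand: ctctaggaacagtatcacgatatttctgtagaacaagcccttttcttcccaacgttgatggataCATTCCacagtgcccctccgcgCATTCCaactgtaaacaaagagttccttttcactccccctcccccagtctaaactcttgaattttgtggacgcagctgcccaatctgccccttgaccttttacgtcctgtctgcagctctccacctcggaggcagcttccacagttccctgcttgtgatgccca
Ankrd1, chr19:36119845-36120094, minus strand: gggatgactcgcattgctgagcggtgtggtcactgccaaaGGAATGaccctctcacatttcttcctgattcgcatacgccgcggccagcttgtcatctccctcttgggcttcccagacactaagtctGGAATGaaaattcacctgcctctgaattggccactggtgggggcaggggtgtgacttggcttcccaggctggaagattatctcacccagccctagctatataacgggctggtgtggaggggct
The single Ccn1 match lay at −103 to −98 from the start, the 2 Ajuba matches at −186 to −181 and −164 to −159, and the 2 Ankrd1 matches at −210 to −205 and −123 to −118. A match is a description of the letters and not of a bound site. In the GENCODE annotation of GRCm38, Ccn1 (chr3:145646976-145649981), Ajuba (chr14:54567472-54577558), Ankrd1 (chr19:36111961-36120099) and Amotl2 (chr9:102716672-102733418) overlapped no other gene. Ccn2 (chr10:24595442-24598683) overlapped Gm15270 on the opposite strand. Lats2 (chr14:57689662-57758388) overlapped the protein-coding gene Gm49361 on its own strand, so the counts of Lats2 could be shared with that gene. Amotl1 (with 4930584E12Rik) and Tead1 (with the miRNA gene Gm44462) also had an overlap on their own strand.

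Levels are given as CPM, the number of unique molecular identifiers (UMIs) of a gene per 1000000 of the TMM-scaled library, and because each UMI stands for the 3′ end of a transcript they are compared between samples and not between genes. Cultures of whole organoids held 3722716 to 6330404 UMIs, sorted samples without irradiation 575242 to 1104126, and samples of the IR experiment 1075715 to 1876729. A gene was tested where it passed edgeR's filter on low counts: 9 of the 10 genes in whole organoids, 4 (Yap1, Tead1, Ajuba and Ccn1) in the IR experiment and 1 (Yap1) in the sorted cells at 72 h. All 7 epithelial markers were counted in each sample. All 6 stem cell markers were counted in each sorted sample, and so were all 6 Paneth cell markers, which mark another crypt cell type and summed to 3956 to 28388 CPM. Of the 8 fibroblast and smooth muscle markers, none passed the filter in any experiment and their summed level was at most 5.12 CPM, the 4 endothelial markers summed to at most 3.01 CPM, and the pan-leukocyte marker Ptprc had 1 UMI in all whole organoid libraries, 10 in the IR experiment and was not listed in the third table. Lcp1 carried nearly all counts of the leukocyte list (1594, 235 and 659 UMIs in the 3 tables). In bulk samples, fewer cells of a type and less RNA per cell cannot be told apart.

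One library stood apart from its label. The second technical library of the VIP-treated whole organoids of mouse 3 had a summed level of 186 CPM over 9 regeneration genes linked to YAP, within the 180 to 233 CPM of the 5 untreated libraries, while the other 7 VIP libraries had 552 to 1101 CPM. Of 6 goblet cell genes, 4 were lower in it than in the first library of the same culture (Clca1 at 52.3 against 325 CPM, and also Tff3, Agr2 and Spink4). Muc2 (134 against 89.1 CPM) and Fcgbp (256 against 181 CPM) were higher. Clca1 lay within the untreated libraries (40.2 to 60.9 CPM) and below the other 7 VIP libraries (173 to 325 CPM). Muc2 and Fcgbp lay within the untreated libraries (47.0 to 146 and 87.3 to 301 CPM) and also within the other VIP libraries (89.1 to 180 and 181 to 432 CPM). Both were above the untreated library of mouse 3 (47.0 and 87.3 CPM). Whether the label of this second library is right could not be tested. Both libraries were summed as labelled. For those of the 10 genes that could be fitted and for the gene lists, values without each library are given beside the results in whole organoids, and without the first library no gene of the whole table passed.

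In untreated Lgr5-EGFP+ cells, IR raised Ccn1 and Ajuba, and no other tested gene of the 10 passed the threshold. Ccn1, which encodes a secreted matrix protein and is among the most used readouts of YAP/TAZ activity, had 57.7, 60.7, 58.9 and 59.9 CPM without IR in mice 1 to 4. After IR it had 71.0, 108, 123 and 95.9 CPM in the same mice (90 to 103 UMIs per sample without and 103 to 196 with IR). All 4 irradiated samples were above all 4 non-irradiated ones, and mouse 1 changed least. The log2 fold change was 0.72 (SE 0.15, 95% CI 0.41 to 1.03, higher in 4 of 4 mice), a 1.65-fold rise, with an adjusted p of 0.00421 by edgeR's quasi-likelihood test.

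Ajuba encodes a LIM-domain scaffold that binds LATS kinases and restrains them. It had 4.39, 2.5, 2.86 and 3.33 CPM without IR and 8.87, 7.69, 4.83 and 10.2 CPM after IR in mice 1 to 4, and the groups did not overlap. These levels rest on 4 to 7 and on 5 to 15 UMIs per sample. The log2 fold change was 1.25 (SE 0.34, 95% CI 0.55 to 1.94, higher in 4 of 4 mice), a 2.37-fold rise with an edgeR adjusted p of 0.0316. Of all 9976 genes tested in this comparison, 4.46% passed the threshold, 286 higher and 159 lower after IR, and of the 10 genes 2 of the 4 tested did. Ajuba passed under 3 of its 10 alternative settings, and its adjusted p was 0.306 in DESeq2. Without mouse 1, 2, 3 or 4 its adjusted p in edgeR was 0.0575, 0.172, 0.0962 or 0.227, so the call needed all 4 mice. Ccn1 passed under 10 of 11, its adjusted p without mouse 2 being 0.0513.

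**Figure D1:**
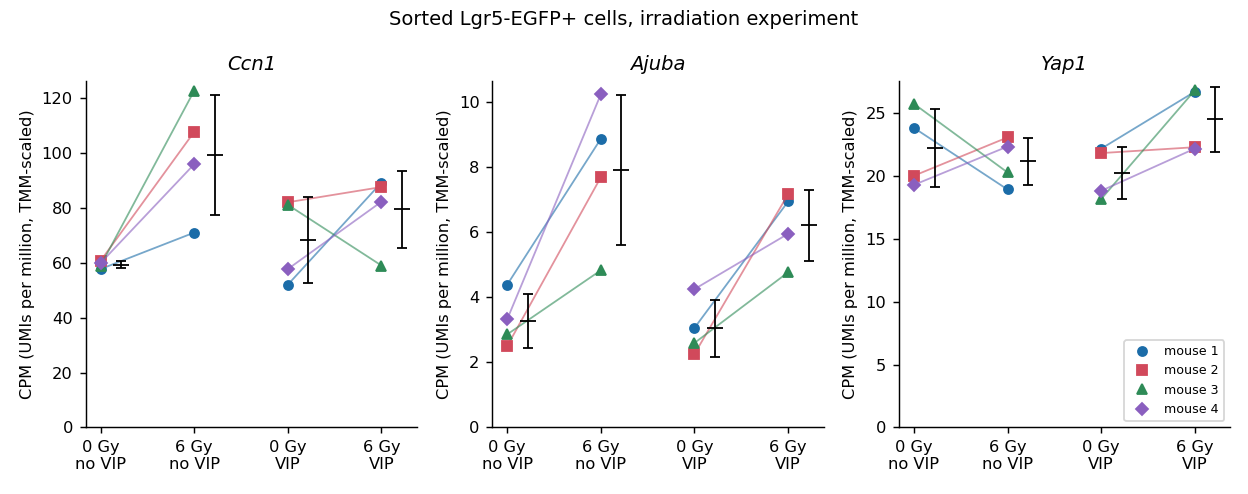
Levels of Ccn1, Ajuba and Yap1 in sorted Lgr5-EGFP+ cells of the IR experiment, in CPM (TMM-scaled). Each point is 1 sample, lines join the 0 Gy and 6 Gy samples of a mouse, and the black marks give the mean ± SD of 4 samples. Without VIP, Ccn1 (57.7 to 60.7 against 71.0 to 123 CPM) and Ajuba (2.5 to 4.39 against 4.83 to 10.2 CPM) do not overlap between 0 and 6 Gy, while Yap1 does.

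Other measures differed between the same groups. Summed Paneth cell markers were at 10041 to 14659 CPM without IR and 14651 to 28388 CPM with IR, and all 6 genes rose. Enteroendocrine markers went from 1941 to 2737 CPM to 3418 to 5311 CPM (2 of 5 rose), goblet cell markers from 5365 to 8262 CPM to 7046 to 10117 CPM (4 of 6 rose), enterocyte markers from 353 to 663 CPM to 630 to 1840 CPM (3 of 5 tested rose), and stem cell markers from 3254 to 4376 CPM to 2351 to 2750 CPM (2 of 6 fell). Their part in the rise of Ccn1 and Ajuba was not tested.

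The other genes of the pathway gave no call after IR. Yap1 ranged from 19.3 to 25.7 CPM without and from 18.9 to 23.1 CPM with IR, higher in 2 of 4 mice (log2 fold change −0.074, 95% CI −0.44 to 0.29, edgeR adjusted p 0.893). Tead1 averaged 19.5 ± 4.31 CPM (SD, n = 4) without and 22.3 ± 3.24 CPM with IR, higher in 3 of 4 mice (log2 fold change 0.17, 95% CI −0.30 to 0.64, edgeR adjusted p 0.779). The groups overlapped for both genes.

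Ccn2, the other CCN-family target, fell below the filter. It had 1, 0, 2 and 1 UMIs without IR and 2, 4, 5 and 5 UMIs with IR in mice 1 to 4, 4 against 16 UMIs in all, so that the highest non-irradiated sample equalled the lowest irradiated one in UMIs. When all genes with any count were fitted, its unadjusted p in edgeR was 0.00522 and its adjusted p 0.166. Wwtr1 had 0 to 7 UMIs without and 1 to 10 with IR, Amotl2 2 to 8 and 2 to 9, Amotl1 2 to 5 and 0 to 3, and Lats2 0 to 1 and 0 to 3. Ankrd1, a cardiac and injury-induced ankyrin-repeat gene used as a YAP target elsewhere, had 3 UMIs over all 16 samples. In the fit on all genes with any count, none of these 6 genes passed.

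In VIP-treated Lgr5-EGFP+ cells, no gene of the 10 passed the threshold for IR, where 7.78% of all genes did. An unadjusted p under 0.05 in edgeR was found for 2 of the 4 tested, beside 2167 of all 9976 genes, and DESeq2 called none. Ajuba had 3.06, 2.26, 2.60 and 4.25 CPM without and 6.95, 7.17, 4.77 and 5.95 CPM with IR, again without overlap and higher in 4 of 4 mice (log2 fold change 0.97, SE 0.36, adjusted p 0.105 in edgeR). Ccn1 had 52.0, 82.0, 81.1 and 57.7 CPM without and 89.2, 87.6, 59.0 and 82.2 CPM with IR, and mouse 3 was lower after IR (log2 fold change 0.24, 95% CI −0.071 to 0.55, adjusted p 0.381 in edgeR). These Ccn1 groups overlapped. Tead1 was higher after IR in 3 of 4 mice (9.74 to 20.6 against 18.4 to 29.4 CPM; log2 fold change 0.56, edgeR adjusted p 0.151). Yap1 was higher in 4 of 4 mice, 18.2 to 22.2 CPM against 22.2 to 26.8 CPM, with a log2 fold change of 0.28 and an edgeR adjusted p of 0.362.

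Whether IR acted differently with VIP was tested by the interaction. For Ccn1 the IR effect was lower by a log2 difference of −0.48 with VIP (SE 0.21, 95% CI −0.92 to −0.040), with an unadjusted p of 0.0337 and an adjusted p of 0.741 in edgeR. For Ajuba the difference was −0.28 (95% CI −1.32 to 0.77), for Yap1 0.36 (95% CI −0.15 to 0.87) and for Tead1 0.39 (95% CI −0.28 to 1.05). Of all genes, 0% passed in edgeR (0 of 9976, with 634 at an unadjusted p under 0.05), and 3 genes passed in DESeq2, none of them among the 10. A difference between the IR effects with and without VIP was therefore not shown for any of the 4 genes.

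VIP itself gave no call among the 10 genes in sorted cells. In irradiated cells, where 0.221% of all genes passed, Ccn1 was lower with VIP in 3 of 4 mice (log2 fold change −0.28, 95% CI −0.58 to 0.013, adjusted p 0.881 in edgeR) and mouse 1 was higher. Ajuba was lower with VIP in 4 of 4 mice, with overlapping groups (log2 fold change −0.36, 95% CI −0.98 to 0.25, adjusted p 0.964 in edgeR). Yap1 and Tead1 differed by 0.22 (95% CI −0.14 to 0.58) and 0.12 (95% CI −0.33 to 0.57). In the same comparison, summed stem cell markers were at 2351 to 2750 CPM without and 2953 to 3571 CPM with VIP (1 of 6 genes rose) and enterocyte markers at 630 to 1840 and 404 to 440 CPM (1 of 5 tested fell), both without overlap. Paneth cell markers overlapped, at 14651 to 28388 and 14699 to 16731 CPM, and 0 of 6 passed. All 6 had an unadjusted p under 0.05 in edgeR, beside 574 of all 9976 genes, and none a positive log2 fold change (median −0.58). Goblet cell markers also overlapped, at 7046 to 10117 and 6568 to 8344 CPM. Of these, 1 of 6 fell and 5 of 6 had an unadjusted p under 0.05 in edgeR. The part of these cell types in the values of Ccn1 and Ajuba was not tested.

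In non-irradiated cells of the same experiment, where 0.742% of all genes passed, Ccn1 differed by a log2 fold change of 0.20 (95% CI −0.13 to 0.52) with 2 of 4 mice higher. The 4 untreated samples of Ccn1 lay within 57.7 to 60.7 CPM and the 4 VIP samples spread over 52.0 to 82.0 CPM. Ajuba (−0.087, 95% CI −0.92 to 0.75), Yap1 (−0.14, 95% CI −0.51 to 0.22) and Tead1 (−0.26, 95% CI −0.75 to 0.23) were each within their spread. The 6 genes below the filter did not pass when all genes with any count were fitted. Amotl1 had the smallest unadjusted p of them in edgeR, 0.0601 (14 UMIs without and 4 with VIP, adjusted p 0.916). In both VIP comparisons of this experiment none of the 4 tested genes had an unadjusted p under 0.05 in edgeR. DESeq2 called none after irradiation, and without irradiation its independent filter gave none of them an adjusted p. The 2 VIP and the 2 IR comparisons share samples and are not independent.

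In the sorted cells treated for 72 h, 0.0885% of all genes passed, and of the 10 genes only Yap1 had enough counts to be tested. Yap1 had 52.0, 51.3, 27.5 and 35.9 CPM without and 40.2, 26.3, 47.8 and 24.2 CPM with VIP, lower in 3 of 4 mice (log2 fold change −0.29, 95% CI −0.83 to 0.26, adjusted p 0.951 in edgeR). The groups overlapped. Ccn1 had 4 to 19 UMIs per sample without and 5 to 13 with VIP, Tead1 4 to 17 and 5 to 17, and Ajuba 2 to 3 and 1 to 7. Ccn2 had 0 UMIs in all 4 untreated samples and 1, 0, 3 and 1 with VIP, and Wwtr1 had 1 UMI over the untreated and 9 over the VIP samples. Fitted with all genes, the smallest adjusted p among the 8 untested genes was 0.997 in edgeR. None of them passed.

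In whole organoids, 8 of the 9 tested genes had a positive log2 fold change with VIP but none passed the threshold, where 4.82% of 12727 genes did, 474 higher and 140 lower. The median over the 9 genes was 0.35, beside −0.0041 over all genes. An unadjusted p under 0.05 in edgeR was found for 3 of the 9, beside 2090 of all 12727 genes, and DESeq2 called none. Only the 3 mice with both cultures inform the fold changes, since VIP-treated mouse 4 had no untreated partner. In the same comparison goblet cell markers were at 5215 to 7054 CPM untreated and 7257 to 9032 CPM with VIP. Of these 6 genes, 5 rose with both libraries of mouse 3 summed, and 0 without the first, where no gene of the whole table passed. Their part in the values of the 9 genes was not tested.

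Ajuba came nearest to the threshold. It had 5.43, 5.38 and 6.29 CPM untreated and 8.25, 7.43, 16.4 and 7.92 CPM with VIP, and the groups did not overlap. The log2 fold change was 0.83 (SE 0.24, 95% CI 0.32 to 1.34, higher in 3 of 3 mice, adjusted p 0.0696 in edgeR). The 2 libraries of VIP-treated mouse 3 differed, at 23.7 and 4.09 CPM of their own totals, where the other 6 VIP libraries had 6.71 to 9.24 CPM and the untreated ones 3.44 to 7.69 CPM. Without its second library Ajuba passed, with an edgeR adjusted p of 0.0334 at a log2 fold change of 1.05. Without its first library the log2 fold change was 0.25 and the adjusted p 0.947.

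Ccn2 had 0, 0.398 and 2.0 CPM untreated (0, 2 and 7 UMIs) and 1.75, 0.948, 3.06 and 1.11 CPM with VIP (6 to 19 UMIs). It was higher in 3 of 3 mice and the groups overlapped (log2 fold change 1.45, SE 0.63, 95% CI 0.095 to 2.80, adjusted p 0.266 in edgeR). All 19 UMIs of VIP-treated mouse 3 came from its first library and 0 from its second, and without either library Ccn2 fell below the filter and was not fitted. Ccn1 had 7.64, 11.2 and 9.44 CPM untreated and 12.5, 7.74, 12.6 and 7.37 CPM with VIP, on both sides of the untreated range (log2 fold change 0.20, 95% CI −0.31 to 0.71, adjusted p 0.754 in edgeR). Its log2 fold change was 0.32 without the second and −0.070 without the first library of mouse 3. Ankrd1 had 1 UMI in the untreated and 3 in the VIP-treated cultures.

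Of the coactivators, Wwtr1 had 2.88, 2.99 and 1.72 CPM untreated and 5.44, 4.11, 3.38 and 2.03 CPM with VIP, higher in 3 of 3 mice with mouse 4 inside the untreated range (log2 fold change 0.76, 95% CI 0.096 to 1.42, adjusted p 0.227 in edgeR). Without the second library of mouse 3 its log2 fold change was 0.84 (edgeR adjusted p 0.101), and without the first 0.56 (adjusted p 0.931). Yap1, at 28.7 to 32.7 CPM untreated and 24.8 to 36.0 CPM with VIP, differed by −0.088 (95% CI −0.38 to 0.21). Tead1, at 17.2 to 29.1 and 18.3 to 32.9 CPM, differed by 0.030 (95% CI −0.27 to 0.33). Lats2, the LATS kinase gene that is itself a YAP target, was at 0.858 to 1.87 CPM untreated and 0.737 to 3.32 CPM with VIP (log2 fold change 0.71, 95% CI −0.28 to 1.70). The angiomotin-like genes Amotl1 and Amotl2, whose products bind YAP at cell junctions, differed by 0.35 (95% CI −0.43 to 1.14) and 0.051 (95% CI −0.86 to 0.97). Without either library of mouse 3, Lats2 was not fitted, Yap1 and Tead1 stayed between −0.10 and 0.032, and Amotl1 (0.41 and 0.17) and Amotl2 (0.079 and 0.080) did not pass.

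**Figure D2:**
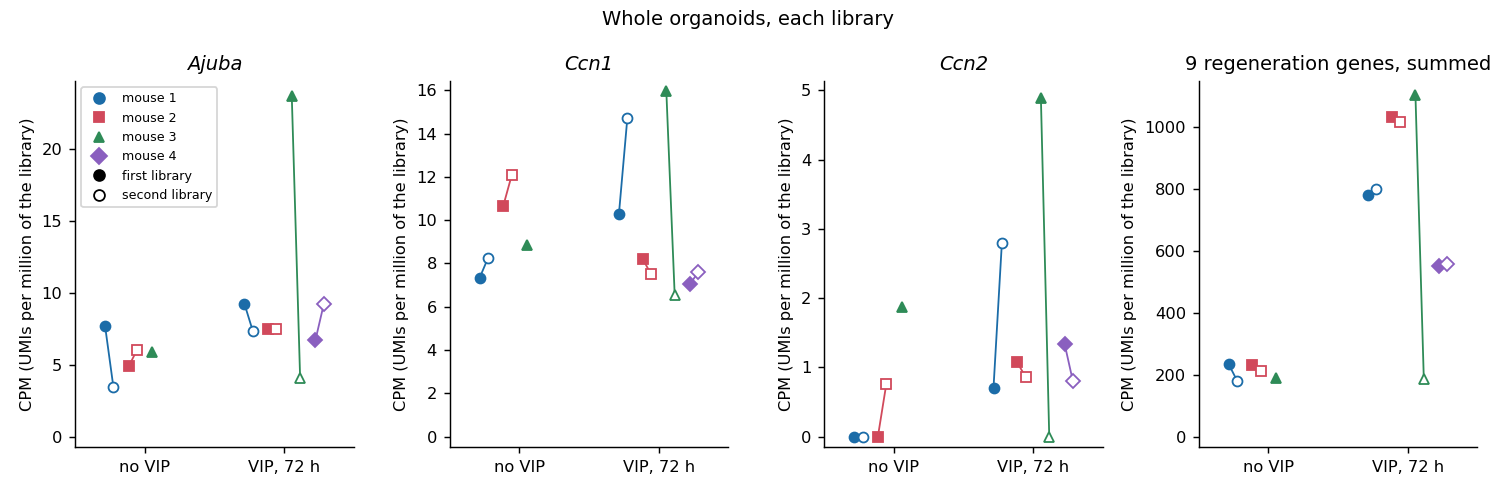
Levels of Ajuba, Ccn1 and Ccn2 and the summed level of 9 regeneration genes in each library of whole organoids, in CPM (UMIs of the gene over those of the library). Colours and shapes mark mice, filled points first and open points second technical libraries, and lines join the 2 libraries of a culture. The second library of VIP-treated mouse 3 lies among the untreated libraries for Ajuba (4.09 CPM), Ccn2 (0 CPM) and the regeneration genes (186 CPM). For Ccn1 (6.54 CPM) it lies below them (7.34 to 12.1 CPM). The first library of this culture is the highest in all 4 panels.

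Whether VIP acted differently in sorted cells at 72 h and in whole organoids was tested for 3 of the genes, in a comparison where 0.147% of all genes passed. The log2 difference of the VIP effect, sorted cells minus whole organoids, was −0.20 for Yap1 (95% CI −0.82 to 0.42), 0.24 for Tead1 (95% CI −0.65 to 1.13) and −0.41 for Ccn1 (95% CI −1.39 to 0.58). None passed in edgeR, and none had an unadjusted p under 0.05 in edgeR. DESeq2 gave an adjusted p to only 2 of the 3 genes and called none.

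**Figure D3:**
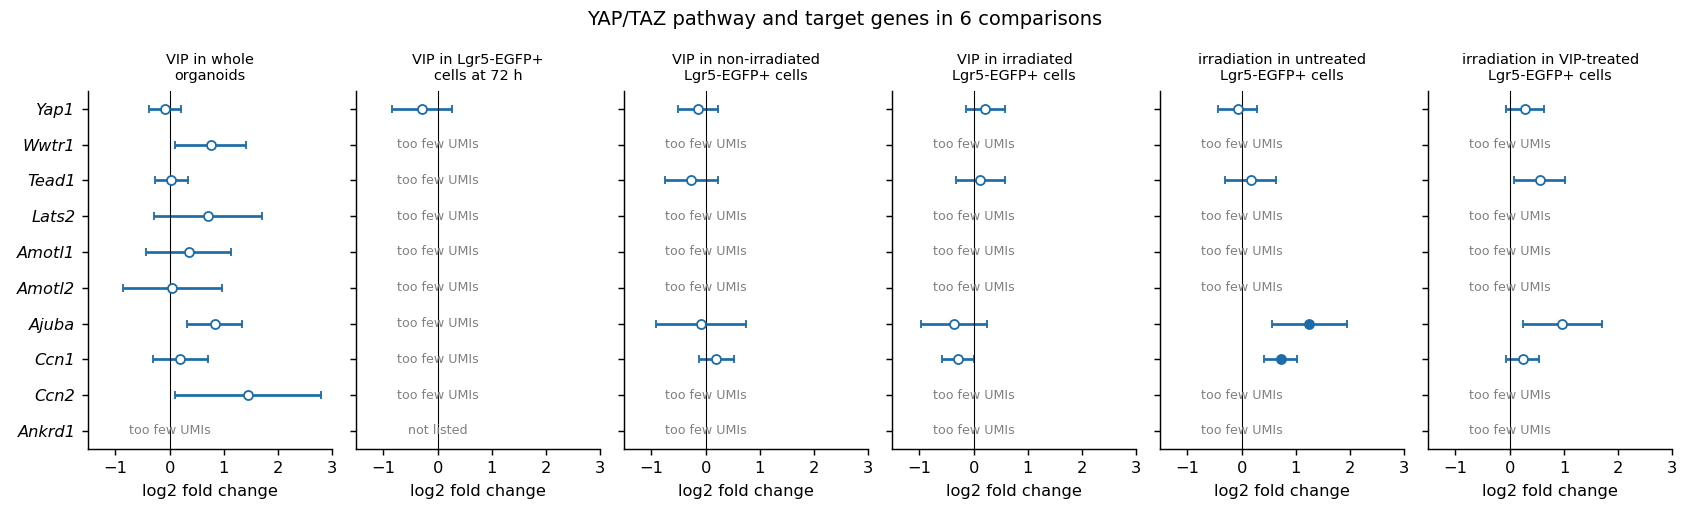
Log2 fold changes of the 10 genes with 95% confidence intervals (edgeR, mouse as a block) in the 6 comparisons of VIP or IR, with filled points past an adjusted p of 0.05. The 2 filled points are Ccn1 (0.72) and Ajuba (1.25) after IR in untreated Lgr5-EGFP+ cells; genes with too few UMIs to be tested are named as such.

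Other genes of the pathway were read from 3 lists. These were chosen with earlier results of these data known, so their counts are a description. All 9 regeneration genes linked to YAP rose with VIP in whole organoids, where 4.82% of all genes passed. Their median log2 fold change was 2.26. Msln, a surface protein of the fetal and injured epithelium, rose from 23.4 to 31.2 CPM to 95.4 to 248 CPM (log2 fold change 2.76, edgeR adjusted p 1.17e-07). Anxa3 (2.26), Anxa1 (2.54) and Il1rn (2.59), which encodes the interleukin-1 receptor antagonist, rose as well. Without the second library of VIP-treated mouse 3, 8 of 8 tested rose (median 2.5), beside 1261 of all 12684 genes that passed. Without its first library 0 of 8 passed and no gene of the whole table did, although all 8 fold changes stayed positive (median 1.59).

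After IR, the 6 regeneration genes that could be tested in sorted cells rose in untreated cells, where 4.46% of all genes passed. Their median log2 fold change was 1.20, beside −0.0041 over all genes. The 6 also rose in VIP-treated cells, where 7.78% of all genes passed (median 1.34, beside 0.0015 over all genes). In untreated cells Areg, an EGF receptor ligand, went from 45.8 to 65.9 CPM to 118 to 177 CPM (log2 fold change 1.29, edgeR adjusted p 1.62e-05), and Anxa1 (0.91), Anxa3 (0.99) and Il1rn (1.38) rose. The summed level of the 9 genes was 199 to 263 CPM without IR and 421 to 543 CPM with IR, without overlap. For VIP in sorted cells, 0 of the 6 passed in irradiated cells, and 1 had an unadjusted p under 0.05 in edgeR, beside 574 of all 9976 genes. In non-irradiated cells 0 passed and 0 were at that level, beside 1237 of all genes. None of the 9 was tested at 72 h. Without mouse 2, 5 of the 6 passed for IR in untreated cells, beside 252 of all 10052 genes. Without each of the other mice all 6 did, beside 176 to 643 genes of the whole table. In VIP-treated cells IR also raised all 6 Paneth and all 5 enteroendocrine markers, and the part of these cell types in the regeneration genes was not tested.

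Among 17 other YAP/TAZ target genes, 7 were tested in whole organoids and 3 rose with VIP, with none lower, where 4.82% of all genes passed: F3, which encodes tissue factor (log2 fold change 1.61, edgeR adjusted p 2.26e-06), the membrane repair gene Myof (1.62) and Asap1 (0.80). F3 was at 19.2 to 24.6 CPM untreated and 58.9 to 70.3 CPM with VIP. After IR, F3 rose again in untreated cells (10.6 to 19.4 against 21.4 to 40.6 CPM, log2 fold change 0.99, edgeR adjusted p 0.00694), together with Fjx1 (0.627 to 2.86 against 8.79 to 11.6 CPM, log2 fold change 2.22, edgeR adjusted p 0.00172), and 2 of 7 tested passed, beside 4.46% of all genes. In VIP-treated cells F3 (1.22) and Gadd45a (0.38), a growth arrest gene, rose, 2 of 7 beside 7.78% of all genes. No gene of this list passed for VIP in sorted cells. Of the 7 tested in each arm of the IR experiment, 1 in irradiated and 2 in non-irradiated cells had an unadjusted p under 0.05 in edgeR. Over all 9976 genes, 574 and 1237 did.

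Of 30 other Hippo and TEAD genes, 2 of the 27 tested in whole organoids passed with VIP, both higher, a share near the 4.82% of all genes, so the count is no result about the list. They were Tead4, another TEAD factor (0.597 to 1.02 against 2.28 to 6.44 CPM, log2 fold change 2.33, edgeR adjusted p 0.00581), and Wwc2, of the KIBRA family of Hippo activators (1.13, adjusted p 0.0143). Without the first library of VIP-treated mouse 3 neither the target list nor this list had a call, where no gene of the whole table did. Without its second library 3 of 7 targets and 4 of 27 genes of this list passed, beside 1261 of all 12684 genes. Without single mice the counts were 2 to 4 for the targets and 1 to 4 for this list, beside 363 to 1668 over all genes. For IR, 0 of 23 passed in untreated cells (20 positive), beside 4.46% of all genes. An unadjusted p under 0.05 in edgeR was found for 4 of the 23, beside 1668 of all 9976 genes. In VIP-treated cells 2 of 23 passed, Wtip, an Ajuba family member (0.76), and the atypical cadherin Fat1 (0.79), a share near the 7.78% of all genes. The median log2 fold changes were 0.23 and 0.26.

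**Figure D4:**
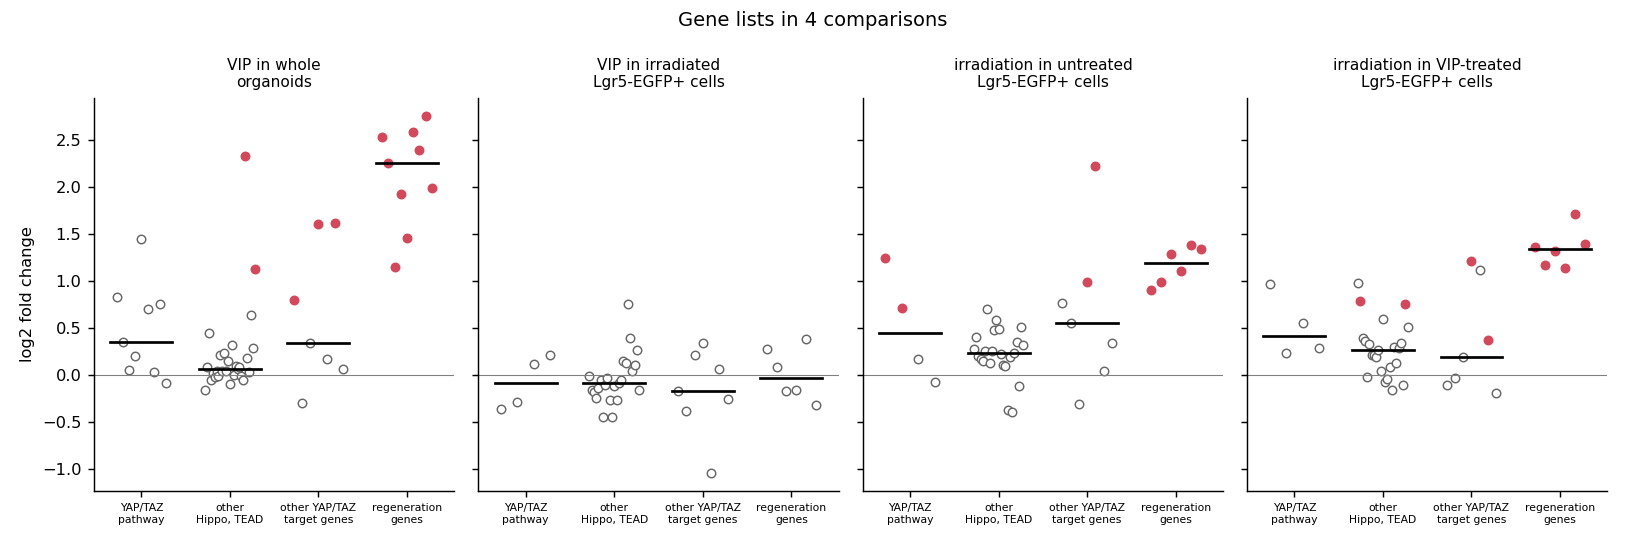
Log2 fold changes of the tested genes of 4 lists in 4 comparisons, each point 1 gene, filled points past an edgeR adjusted p of 0.05 and black bars the list median. The lists were chosen with earlier results of these data known. The regeneration genes have the highest medians in whole organoids with VIP (2.26) and after IR (1.20 and 1.34), with all tested genes filled, while the other Hippo and TEAD genes have medians of 0.061, 0.23 and 0.26 in the same comparisons.

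Ccn1 is also known as an immediate early gene, so 16 immediate early and dissociation response genes were read beside it. With VIP in whole organoids 8 of 15 tested rose, among them Fos (0.98), Dusp1 (1.04), Junb (0.63) and Hspa1b (1.64), whose near-identical copy Hspa1a can share reads with it, where 4.82% of all genes passed. Without the first library of VIP-treated mouse 3, 0 of 15 passed (smallest edgeR adjusted p 0.336, median log2 fold change 0.46 in place of 0.89), where no gene of the whole table did. Without its second library 11 of 15 did, beside 1261 of all 12684 genes. After IR in untreated cells 2 of 16 tested rose, Junb (0.35) and Fosl1 (1.10), and 1, Jun, fell by 0.30 on the log2 scale. The other 13 did not pass, where 4.46% of all genes passed. In VIP-treated cells 4 of 16 rose, Fosl1 (1.96), Nr4a1 (0.88), Junb (0.36) and Klf6 (0.28). The other 12 did not pass, where 7.78% of all genes passed. The summed level of the list did not separate the groups (1737 to 2173 CPM without and 1740 to 1993 CPM with IR in untreated cells). Between the 2 experiments with sorted cells it did: untreated samples had 513 to 1028 CPM at 72 h and 1737 to 2173 CPM in the non-irradiated group of the IR experiment, and Ccn1 had 6.84 to 34.9 CPM in the first and 57.7 to 60.7 CPM in the second. The tables were scaled separately and came from different mice, so the source of this difference cannot be told apart and was not tested.

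Over the 16 samples of the IR experiment, after the mean of each mouse was removed from log2 CPM, the genes whose pattern was most like that of Ccn1 among 9975 others were Etv6 (Pearson r = 0.921), Arl8a (r = 0.861) and Serpina1b (r = 0.852). These are the highest of many correlations over samples that share libraries and groups and are given as a description; Serpina1b belongs to a family of near-identical genes between which reads can be split.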

How the data were processed

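RNA of 37 libraries from 31 cultures was analysed. The authors prepared 3′ libraries with sample barcodes and UMIs, processed reads with the Drop-seq pipeline on GRCm38 with GENCODE annotation, and deposited tables of raw, whole-number UMI counts for each gene; filters were not given in the sources used here. Replicates are organoid lines of different mice; technical libraries of a culture were summed. Every column was assigned to a sample.

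Counts were fitted in R 4.3.3 with edgeR 4.0.16 (filterByExpr by group, TMM, glmQLFit and glmQLFTest, mouse as a block). P-values were adjusted by Benjamini-Hochberg over all tested genes, with a threshold of 0.05. The fit was checked on simulated data. Samples were paired by the mouse in their labels, since same-numbered samples come from 1 mouse. The correlation of their deviations from the group means was 0.27 to 0.63 for the same mouse in whole organoids, 0.03 to 0.21 in sorted cells at 72 h and −0.07 to 0.16 in the IR experiment. Between different mice it was −0.54 to 0.33, −0.14 to 0.15 and −0.20 to 0.20. In the IR experiment the same-mouse range thus lay inside that of different mice, and the pairing there rests on the labels. Alternatives were DESeq2 1.42.0, other scalings and filters, no block, and leaving out mice or libraries. CPM used the TMM-scaled library sizes. Depth sets the precision: 1 UMI was worth more CPM in sorted samples, and low counts carry counting error.

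The 10 genes and all lists were chosen with earlier results of these data known. Every tested gene of the 10 is named in each comparison, while those below the filter are named only in part. From each other pathway list up to 4 genes past the threshold with the smallest p are named. For Ccn1, the target with the highest mean level in the IR experiment, the 3 genes most correlated with it are named. Gene positions are from a GENCODE annotation of GRCm38 and promoters from RefSeq (GRCm38.p6).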

Additional observations from a re-analysis of the deposited data

Results flagged for a closer look

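Ajuba in the VIP-treated whole organoids of mouse 3, at 16.4 CPM, stood apart from the other 3 VIP-treated cultures (7.43 to 8.25 CPM). The gap was 0.909 of the range of the group, above Dixon's 95% critical value for 4 samples. This was the only such value among 27 sets of 4 samples, and chance gives about 1 in 20. Its 2 libraries differed, at 23.7 and 4.09 CPM.

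Ajuba was higher with VIP in 3 of 3 mice in whole organoids (log2 fold change 0.83) and lower in 4 of 4 mice in irradiated Lgr5-EGFP+ cells (−0.36). Neither passed the threshold in edgeR, the cells, mice and VIP durations differed, and the difference was not tested.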

How the results depend on the processing

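Of 369 fold changes of single genes under the alternatives, 342 kept their direction and their side of the threshold, 8 lost the call, 4 gained one and 15 changed sign, none of these 15 from a called value. In whole organoids, 1 gene (Ajuba) instead of 0 passed when all genes with any count or those with at least 10 counts were fitted, with the first library of each culture only, and without the second library of VIP-treated mouse 3. After IR in untreated cells, 1 gene (Ccn1) instead of 2 passed in DESeq2, in both wider filters and in the 2 groups alone, where Ajuba was not tested; without single mice the count was 0 to 1, and 0 without mouse 2. Without the mouse as a block 2 genes passed there and 0 in each other comparison; the block changed no call of the 10 genes, while over all genes the whole organoid count fell from 614 to 99. Other counts over all genes also moved by over 1.5 times. Whole organoids gave 296 in DESeq2, 979 with any count, 377 without mouse 1, 363 without mouse 2, 1668 without mouse 3, and 1261 without the second and 0 without the first library of VIP-treated mouse 3. IR gave 268 in DESeq2 and 176 to 643 without single mice in untreated cells (445 above), and 455 and 426 to 691 in VIP-treated cells (776). VIP without IR gave 182 with any count, 113 with at least 10 counts, 184 in the 2 groups alone, 34 without the block and 32 to 42 without single mice (74), and VIP after IR 110, 53, 52, 12 and 5 to 35 (22). At 72 h the count was 1 to 17 over all alternatives (6), for the compartment 0 to 57 (15), and for VIP with IR 0 to 34 (0).

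Leaving out single mice turned the sign of uncalled log2 values. In whole organoids the ranges were −0.068 to 0.56 for Ccn1, −0.21 to 0.066 for Yap1, −0.062 to 0.14 for Tead1 and −0.60 to 0.45 for Amotl2. For VIP without IR they were −0.28 to 0.080 for Ajuba and −0.46 to 0.11 for Tead1, for VIP after IR −0.080 to 0.27 for Tead1, and for IR in untreated cells −0.18 to 0.035 for Yap1. The interaction with IR ranged from −0.45 to 0.068 for Ajuba, and that with the compartment from −1.0 to 0.16 for Ccn1 and −0.087 to 0.87 for Tead1. Tead1 was also −0.18 with first libraries only, and Ccn1 −0.070 without the first library of VIP-treated mouse 3. The cause was not tested. Depth left 6 of the 10 genes untested in the IR experiment.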
